A study of Mus musculus with 6 samples.

Results

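The genes described here encode the machinery that adds, removes and binds the poly(A) tail of messages, and 41 of the 42 listed genes were found in the count table. They comprise 14 factors of nuclear cleavage and polyadenylation, 2 nuclear poly(A) polymerases, 3 cytoplasmic or noncanonical poly(A) polymerases, 10 subunits of the CCR4-NOT deadenylase, 4 of its adaptors from the BTG/TOB family, 3 members of the PAN2-PAN3 and PARN deadenylases, and 5 poly(A)-binding proteins or their partners. Of these, 38 carried the listed symbol, and Papd4, Papd5 and Papd7 were found as Tent2, Tent4b and Tent4a through the synonyms of a RefSeq gene table on GRCm38. The listed symbol Symplk matched no symbol or synonym, and the table's Sympk, the gene of the scaffold protein symplekin, is given apart from the members. The whole table held 55376 genes, and all 41 members passed the filter on low counts that left 18054.

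RNA came from muscle stem cells sorted from C57BL/6 mice aged 3 months, and was sequenced from full-length SMART-seq2 cDNA. Each of the groups, CPEB4 RIP, IgG RIP and input, had 2 libraries. RNA immunoprecipitation (RIP) recovers the RNA held by a protein with an antibody to it. The CPEB4 antibody gives the group of interest, nonspecific IgG gives the background of the procedure, and input is the total RNA of the cells. All groups share strain, age and cell type, no genotype or treatment differs between them, and the sources used here do not give the number of animals behind a library. The p-values below therefore set the differences between groups against the spread between these libraries, which may be technical in part.

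Most eukaryotic messages receive a poly(A) tail in the nucleus, where a complex of CPSF, CstF and further factors cuts the transcript and a canonical poly(A) polymerase extends it. In the cytoplasm the tail is coated by poly(A)-binding proteins and shortened by the PAN2-PAN3 and CCR4-NOT deadenylases. CPEB proteins bind the cytoplasmic polyadenylation element in the 3′ end of messages and can bring either tail-extending or tail-shortening enzymes to it. In Xenopus oocytes CPEB1, a relative of CPEB4, works with CPSF, symplekin, the poly(A) polymerase GLD-2 and the deadenylase PARN. What was measured here is how much of the messages of these proteins was recovered with CPEB4, not the proteins or the tails themselves.

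Total counts ranged from 9018323 to 20843042 per library. The IgG RIP libraries stood apart from each other, with Pearson r = 0.873 between them across 18054 genes, against 0.981 between the CPEB4 RIP libraries and 0.975 between the input libraries. The same was seen over the members. The higher of the 2 replicates exceeded the lower by a median of 1.11-fold in CPEB4 RIP, 1.38-fold in IgG RIP and 1.22-fold in input. The medians over all genes tested were higher in each group, at 1.20-fold, 1.63-fold and 1.27-fold in the same order. In IgG RIP 8 of 41 members differed more than 2-fold between replicates, and in CPEB4 RIP and input 0 did. Markers of muscle stem cells summed to 63415 and 69268 CPM in the CPEB4 RIP libraries (CPM are counts scaled to 1e+06 per library with trimmed means of log ratios), 62895 and 61501 in those of IgG RIP and 46291 and 47494 in those of input, with 0 of 10 at 0. Of these 10, 3 were higher and 2 lower over input, and 1 was lower over IgG RIP. For this and the marker counts that follow, 12.7% of all genes tested passed over input and 8.21% over IgG RIP. Leukocyte markers summed to 24.7 to 62.7 CPM over the 6 libraries, with up to 2 of 8 at 0 in a library and 1 of the 7 tested higher over each background. Of the other lists, erythroid markers differed most in level, at 657 and 327 CPM in the CPEB4 RIP libraries, 87.9 and 147 in those of IgG RIP and 109 and 179 in those of input, with 3 of 6 higher over IgG RIP and 3 of 6 over input. Myofibre markers summed to 238 and 185 CPM in the CPEB4 RIP libraries, 111 and 142 in those of IgG RIP and 117 and 174 in those of input, with 1 of 8 at 0 in IgG RIP replicate 2 and 3 of the 7 tested higher over each background. Fibro-adipogenic markers (8 genes, none at 0) summed to 1320.3 to 2657 CPM and endothelial markers (8, none at 0) to 305 to 644 CPM over the libraries, and in each of these lists 1 was higher over IgG RIP and 2 over input, beside 1 endothelial marker that was lower than input. The part of these markers in the results below was not tested.

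Against input, 6 members were higher in CPEB4 RIP, 3 were lower and 32 did not pass the quasi-likelihood test of edgeR at an adjusted p of 0.05. In this comparison 12.7% of all genes tested passed (8.0% higher, 4.7% lower). The higher members were the poly(A)-binding proteins Pabpc1 and Pabpc4, the deadenylase Cnot6, the adaptors Tob2 and Btg1, and the cleavage factor Nudt21. The lower members were the deadenylase Parn, the cleavage nuclease Cpsf3 and the adaptor Btg2. Against IgG RIP 0 members were higher, 2 were lower (Parn and the cleavage factor Fip1l1) and 39 did not pass, where 8.21% of all genes passed (4.79% higher, 3.42% lower). Both comparisons use the CPEB4 RIP libraries. For IgG RIP against input 0 of 41 members passed, as did 0.0% of all genes; at an unadjusted p under 0.05 there were 4 members (14.1% of all genes), and DESeq2 called 2, Cnot6 and Tob2 (3.91%). At that unadjusted level 12 members stood out over IgG RIP (26.8% of all genes) and 18 over input (28.1%). The median log2 fold change of the members was -0.14 over IgG RIP, beside -0.07 over all genes, and 0.04 over input, beside -0.06. The libraries of CPEB4 RIP did not overlap those of IgG RIP in 28 members, 12 higher (29.4% of all genes) and 16 lower (25.5%), nor those of input in 32, 16 higher (34.4%) and 16 lower (37.6%). IgG RIP was apart from input in 17, 11 higher (21.4%) and 6 lower (20.7%). Since CPM is a share of a library's counts, less recovery of a message and more recovery of other RNA cannot be told apart.

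How many members passed depended on the libraries and the scaling used, and so did the share of all genes that passed. Over IgG RIP the 2 members became 0 without CPEB4 RIP replicate 1 (0.910% of all genes passed there) or replicate 2 (0.00%). They became 16 without IgG RIP replicate 1, 8 higher and 8 lower (37.0%), and 18 without IgG RIP replicate 2, 15 higher and 3 lower (35.1%). Without either input replicate 4 passed, 3 higher and 1 lower (4.75% and 4.45%). Over input the 9 members became 1 and 0 without CPEB4 RIP replicates 1 and 2 (2.90% and 0.541%), and 25 without either IgG RIP replicate, 15 higher and 10 lower (38.2% and 37.6%). They became 3 and 4 without input replicates 1 and 2 (3.05% and 3.46%). With a correction for gene length 0 passed over IgG RIP (0.00% of all genes) and 2 over input, Cnot6 and Cpsf3 (3.48%). Scaling by library size alone split the calls over input into 4 higher and 6 lower (13.9%) and those over IgG RIP into 2 higher and 3 lower (10.7%). It also moved the median of all genes over input to -0.27. DESeq2's size factors gave 5 higher and 5 lower over input (13.3%), and 1 higher and 2 lower over IgG RIP (9.23%). DESeq2's own test called 7 members over IgG RIP (16.0% of all genes), adding Clp1, Cpsf3, Btg1, Papola and Pabpc1. Over input it called 16 (19.3%), adding Clp1, Fip1l1, Pcf11, Cnot10, Cnot6l, Tob1 and Paip1.

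**Figure D1:**
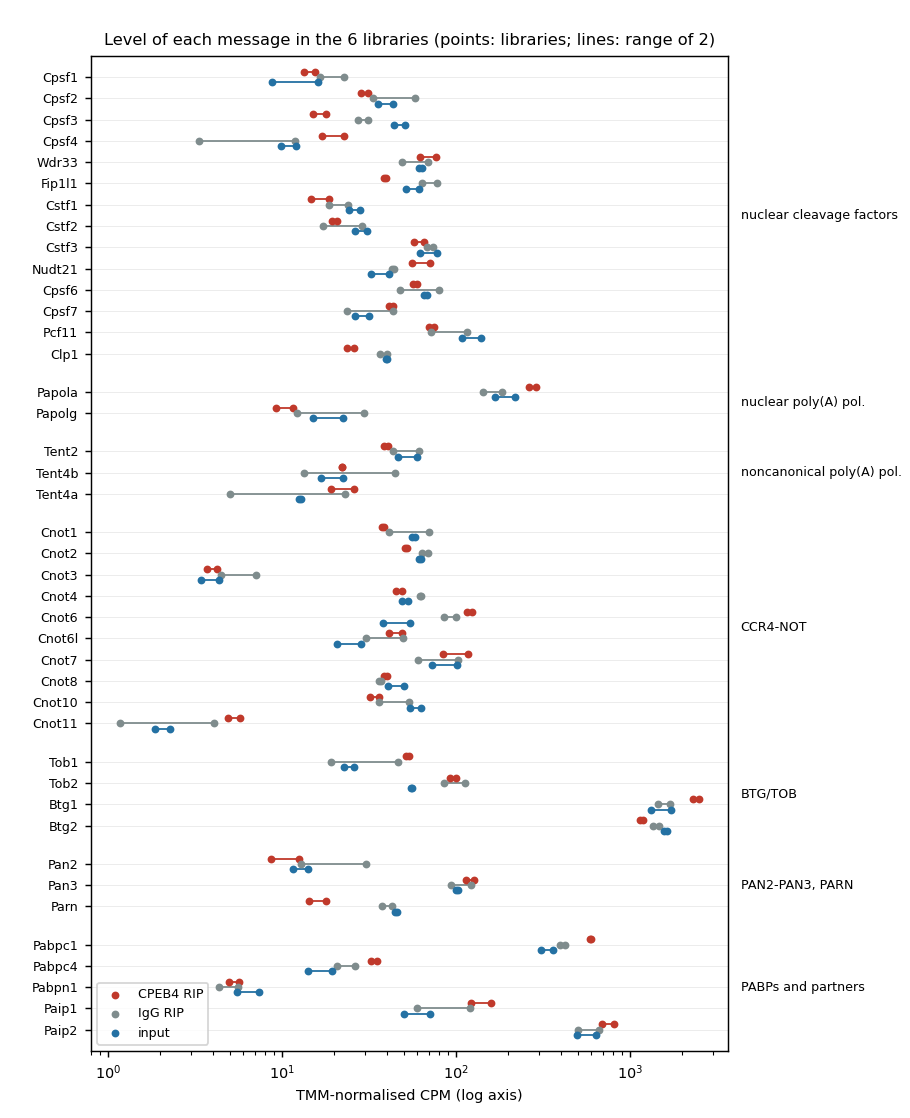
Normalised CPM (log axis) of the 41 messages in each library of CPEB4 RIP, IgG RIP and input, ordered by the role of the encoded protein. Points are libraries and lines join the 2 replicates of a group. Btg1 and Btg2 are the most abundant messages, and the wide IgG RIP lines at Cpsf4, Tent4a, Tent4b and Cnot11 show where those replicates disagreed.

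**Figure D2:**
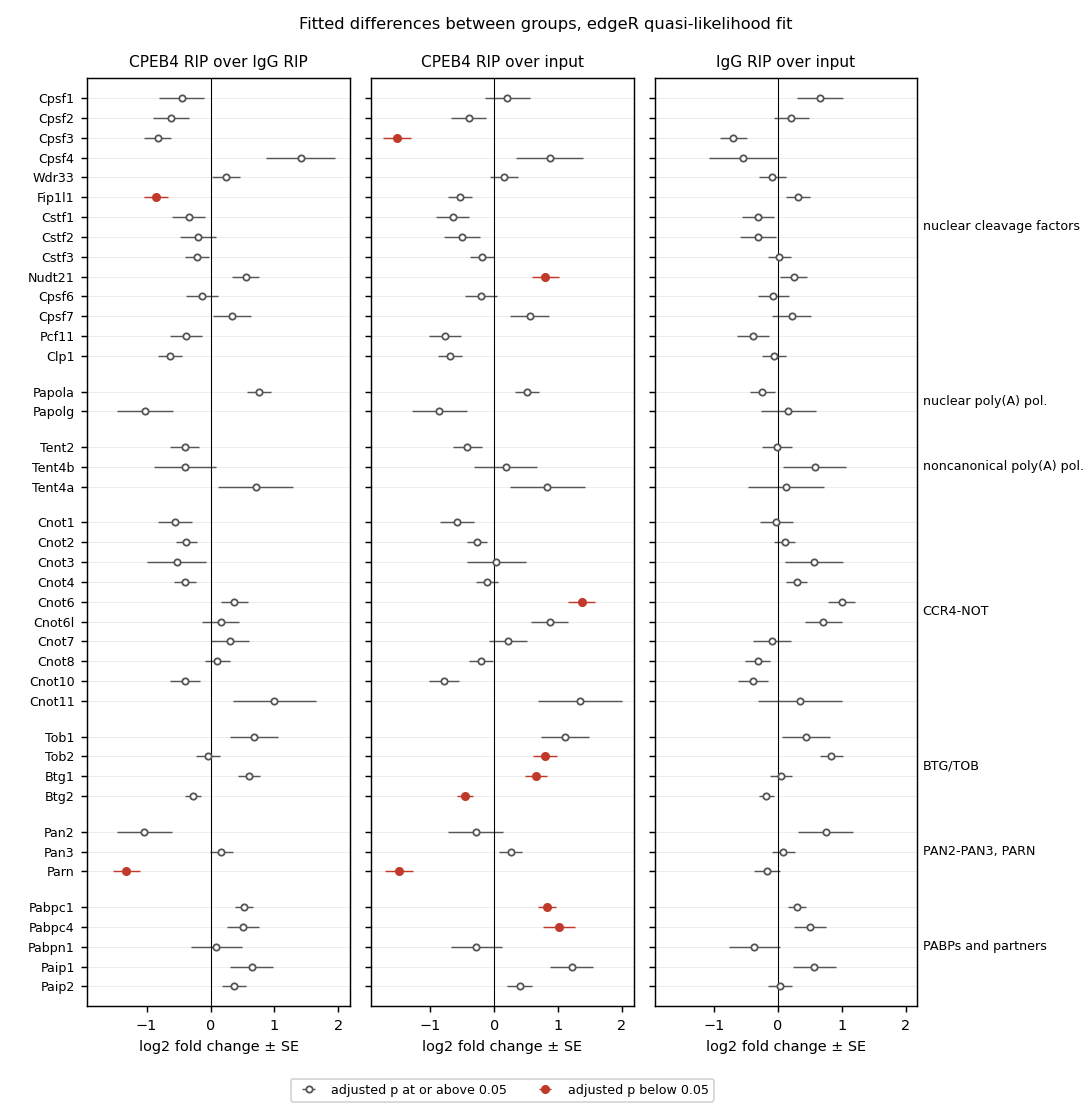
Log2 fold change with its SE for each message in the 3 comparisons, from a fit to all 6 libraries. Filled red points passed an adjusted p of 0.05, as 2 messages did over IgG RIP, 9 over input and 0 for IgG RIP over input.

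The poly(A)-binding proteins and their partners were the role with the highest median over both backgrounds, 0.83 over input and 0.51 over IgG RIP. Their median was also the highest for IgG RIP over input, at 0.31. Of the 5 members 2 passed over input, where 12.7% of all genes did. Pabpc1 (chromosome 15, 36595658 to 36609581, GRCm38) encodes the main cytoplasmic poly(A)-binding protein, which coats tails and promotes translation. It stood at 597 and 589 CPM in the CPEB4 RIP libraries, 426 and 398 in those of IgG RIP and 307 and 360.1 in those of input. The 3 groups did not overlap, and CPEB4 RIP was the highest and input the lowest. Pabpc1 rose 1.78-fold over input, a log2 fold change of 0.83 with an SE of 0.14 (adjusted p = 0.011), and stood 0.52 above IgG RIP with an SE of 0.14, which did not pass (adjusted p = 0.0638). Over IgG RIP Pabpc1 passed in 9 of 16 alternatives, with adjusted p between 0.00226 and 0.435. DESeq2 gave 0.0115 after adjustment, and the fits without IgG RIP replicates 1 and 2 gave 0.00226 and 0.014. Without CPEB4 RIP replicates 1 and 2 the adjusted p was 0.177 and 0.435, and with a correction for gene length 0.23. Over input the call did not hold without CPEB4 RIP replicate 1 (with p then 0.059 after adjustment), CPEB4 RIP replicate 2 (0.137) or input replicate 1 (0.0783).

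Pabpc4 (chromosome 4, 123282303 to 123298925), a less abundant cytoplasmic poly(A)-binding protein, had 32.3 and 35.1 CPM in the CPEB4 RIP libraries, 20.8 and 26.4 in those of IgG RIP and 19.3 and 14.1 in those of input. It was in the same order of groups, again without overlap. Its log2 fold change was 1.01 with an SE of 0.25 (adjusted p = 0.0404) over input and 0.51 (adjusted p = 0.24) over IgG RIP. Leaving out CPEB4 RIP replicate 1 (with p then 0.165 after adjustment), CPEB4 RIP replicate 2 (0.326), input replicate 1 (0.0883) or input replicate 2 (0.229) ended the call over input. Paip1, which binds poly(A)-binding protein and stimulates translation, had 122 and 159 CPM in the CPEB4 RIP libraries, 59.7 and 120.1 in those of IgG RIP and 50.2 and 71.1 in those of input. Its log2 fold change over input, 1.21 with an SE of 0.34 (adjusted p = 0.0577), was larger than that of Pabpc1, but so was its error, and it did not pass. Paip2, a partner that inhibits poly(A)-binding protein, was the third most abundant member per length, and had 696 and 806 CPM in the CPEB4 RIP libraries, 502 and 663 in those of IgG RIP and 499 and 641 in those of input. Both of its CPEB4 RIP libraries lay above the other 4, yet the differences of 0.40 (adjusted p = 0.225) over input and 0.37 (adjusted p = 0.267) over IgG RIP did not pass. Pabpn1, the nuclear poly(A)-binding protein that controls tail length during synthesis, was low in every library, with 5.63 and 4.99 CPM in the CPEB4 RIP libraries, 4.37 and 5.59 in those of IgG RIP and 7.34 and 5.54 in those of input, and the groups overlapped. Its log2 fold changes were -0.28 over input and 0.09 over IgG RIP.

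The BTG/TOB adaptors link CCR4-NOT to poly(A)-binding protein or to RNA-bound regulators, and 3 of the 4 passed over input, with both directions among them. Over all genes 12.7% passed in that comparison. Btg1 (chromosome 10, 96617001 to 96622813), an antiproliferative gene, had the highest mean CPM of all members. It stood at 2292 and 2497 CPM in the CPEB4 RIP libraries, 1454 and 1698 in those of IgG RIP and 1318 and 1730.2 in those of input. The CPEB4 RIP libraries were above all others, while IgG RIP and input overlapped. Btg1 rose 1.57-fold over input, with a log2 fold change of 0.65 with an SE of 0.17 (adjusted p = 0.0426). Over IgG RIP the value was 0.60 with an SE of 0.17 (adjusted p = 0.0675), short of the threshold. Over IgG RIP Btg1 passed in 9 of 16 alternatives, with adjusted p between 0.000918 and 0.469. DESeq2 gave 0.00571 after adjustment, and the fits without IgG RIP replicates 1 and 2 gave 0.00602 and 0.000918. Without CPEB4 RIP replicates 1 and 2 the adjusted p was 0.117 and 0.469, and with a correction for gene length 0.32. Btg1 did not pass over input without CPEB4 RIP replicate 1 (with p then 0.0958 after adjustment), CPEB4 RIP replicate 2 (0.334) or input replicate 1 (0.153).

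Its close relative Btg2 (chromosome 1, 134074865 to 134079155), a target of p53 in many cells, went the other way. Btg2 had 1191 and 1147 CPM in the CPEB4 RIP libraries, 1469.9 and 1361 in those of IgG RIP and 1631 and 1578 in those of input. The 3 groups did not overlap, with input the highest and CPEB4 RIP the lowest. Btg2 fell by 0.46 on the log2 scale relative to input, with an SE of 0.12 (adjusted p = 0.0486) and stood at -0.28 (adjusted p = 0.196) relative to IgG RIP. It did not pass without CPEB4 RIP replicate 1 (with p then 0.46 after adjustment), CPEB4 RIP replicate 2 (0.617), input replicate 1 (0.231) or input replicate 2 (0.182), and with a correction for gene length the value over input was -0.29 (adjusted p = 0.488).

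Tob2 (chromosome 15, 81848270 to 81858326) encodes an adaptor that in human cells joins CNOT7 to poly(A)-binding protein. It had 99.9 and 92.8 CPM in the CPEB4 RIP libraries, 85.7 and 112 in those of IgG RIP and 55.96 and 54.97 in those of input. Both immunoprecipitations were above input, and CPEB4 RIP lay within the range of IgG RIP. Tob2 rose 1.74-fold over input (log2 0.80, SE 0.18, adjusted p = 0.0301), and stood at -0.04 (adjusted p = 0.908) over IgG RIP. IgG RIP stood 0.84 over input, which did not pass in edgeR (adjusted p = 0.199) but did in DESeq2 (0.00221) and in 3 of 16 alternatives in all. Tob2 did not pass over input without CPEB4 RIP replicate 1 (with p then 0.146 after adjustment), CPEB4 RIP replicate 2 (0.222), input replicate 1 (0.114) or input replicate 2 (0.124). Tob1, the other TOB gene, whose protein in human cells brings CCR4-NOT to targets of CPEB3, had 53.7 and 51.96 CPM in the CPEB4 RIP libraries, 19.1 and 46.5 in those of IgG RIP and 22.7 and 26.1 in those of input. It was higher in both CPEB4 RIP libraries than in the other 4. The differences were 1.11 with an SE of 0.38 (adjusted p = 0.098) over input and 0.68 (adjusted p = 0.284) over IgG RIP, where the replicates were 2.44-fold apart.

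Of the 10 CCR4-NOT subunits 1, Cnot6, was higher over input, 0 were lower and 9 did not pass. That share, 10%, was near the 12.7% of all genes. Over IgG RIP 0 of 10 passed (8.21% of all genes), against 1 at an unadjusted p under 0.05 (26.8%) and none by DESeq2 (16.0%). The median of this role was -0.04 over input and -0.13 over IgG RIP. Cnot6 (chromosome 11, 49671497 to 49713401) encodes a catalytic subunit of the CCR4 type. It had 125 and 115 CPM in the CPEB4 RIP libraries, 84.9 and 101 in those of IgG RIP and 38.3 and 54.7 in those of input. The groups did not overlap, and both immunoprecipitations were above input. Cnot6 had the largest rise over input of any member that passed, 2.58-fold or 1.37 with an SE of 0.21 (adjusted p = 0.00807) on the log2 scale. IgG RIP stood 0.998 over input in edgeR (adjusted p = 0.199), a difference that DESeq2 called (0.0013) and that passed in 4 of 16 alternatives, and CPEB4 RIP stood 0.37 over IgG RIP (adjusted p = 0.299). Over input Cnot6 did not pass without CPEB4 RIP replicate 2 (with p then 0.0825 after adjustment) and passed without each of the other 5 libraries. DESeq2 gave 1.32 for CPEB4 RIP over input.

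The second CCR4-type nuclease, Cnot6l, had 49.05 and 41.1 CPM in the CPEB4 RIP libraries, 30.6 and 49.8 in those of IgG RIP and 20.8 and 28.7 in those of input. It too was above input in all 4 immunoprecipitated libraries, by 0.87 (adjusted p = 0.096) in CPEB4 RIP and 0.71 (adjusted p = 0.337) in IgG RIP, neither of which passed. The CAF1-type nuclease Cnot7 had 84.3 and 117 CPM in the CPEB4 RIP libraries, 60.2 and 103 in those of IgG RIP and 73.1 and 101 in those of input, and its replicates were as far apart as the groups (0.21 over input, 0.31 over IgG RIP). Its paralogue Cnot8 was nearly level, with 40.3 and 38.5 CPM in the CPEB4 RIP libraries, 36.1 and 37.00 in those of IgG RIP and 40.9 and 50.05 in those of input (-0.21 and 0.11). Cnot1, the scaffold on which the complex assembles, had 37.8 and 38.4 CPM in the CPEB4 RIP libraries, 41.4 and 70.5 in those of IgG RIP and 55.6 and 58.5 in those of input. Both CPEB4 RIP libraries were below the other 4, but -0.58 (adjusted p = 0.192) over input and -0.56 (adjusted p = 0.217) over IgG RIP did not pass. Cnot2, which joins Cnot3 at the base of the complex, showed the same order with 50.7 and 52.2 CPM in the CPEB4 RIP libraries, 64.2 and 69.5 in those of IgG RIP and 61.3 and 62.8 in those of input (-0.27 over input, -0.38 over IgG RIP). Cnot10, a subunit that with Cnot11 binds the scaffold's first part, had 36.1 and 32.2 CPM in the CPEB4 RIP libraries, 36.3 and 53.6 in those of IgG RIP and 54.6 and 62.9 in those of input and stood at -0.78 (adjusted p = 0.0703) relative to input. Cnot11 itself was low, with 5.72 and 4.89 CPM in the CPEB4 RIP libraries, 1.17 and 4.08 in those of IgG RIP and 2.28 and 1.87 in those of input, and stood at 1.34 with an SE of 0.65 (adjusted p = 0.227) over input. Cnot4, a ubiquitin ligase, had 45.4 and 49.1 CPM in the CPEB4 RIP libraries, 62.9 and 62.1 in those of IgG RIP and 49.00 and 53.1 in those of input (-0.11 over input, -0.40 over IgG RIP), and Cnot3 had at most 7.14 CPM in any library.

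Parn was the member that passed over both backgrounds. Parn (chromosome 16, 13537964 to 13668198) encodes a deadenylase that prefers capped messages and also trims many noncoding RNAs. It had 14.2 and 17.8 CPM in the CPEB4 RIP libraries, 37.4 and 42.8 in those of IgG RIP and 45.6 and 44.6 in those of input. The CPEB4 RIP libraries were far below the other 4, and IgG RIP was only just below input. Parn was lower in CPEB4 RIP, by 2.81-fold than input (log2 -1.49, SE 0.21, adjusted p = 0.00616) and by 2.50-fold than IgG RIP (log2 -1.32, SE 0.21, adjusted p = 0.0152). The value over IgG RIP without each library ranged from -1.44 to -0.96, and it did not pass without CPEB4 RIP replicate 1 (with p then 0.229 after adjustment) or CPEB4 RIP replicate 2 (0.221). Over input the range was -1.60 to -1.22, and it did not pass without CPEB4 RIP replicate 1 (with p then 0.0943 after adjustment) or CPEB4 RIP replicate 2 (0.0935). With a correction for gene length both values were beyond -1.2 in size (-1.36 over IgG RIP, -1.24 over input) and their adjusted p was 0.0988 and 0.068. Pan3, the subunit that brings PAN2 to poly(A)-binding protein, was nearly level, with 114 and 128 CPM in the CPEB4 RIP libraries, 122 and 93.9 in those of IgG RIP and 103 and 99.9 in those of input (0.26 over input, 0.17 over IgG RIP). The nuclease Pan2 had 12.5 and 8.67 CPM in the CPEB4 RIP libraries, 12.8 and 30.4 in those of IgG RIP and 14.1 and 11.6 in those of input. Its value of -1.04 with an SE of 0.43 (adjusted p = 0.174) relative to IgG RIP did not pass, and the IgG RIP replicates were 2.38-fold apart.

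None of the 5 poly(A) polymerases passed in either comparison with CPEB4 RIP, where 8.21% of all genes passed over IgG RIP and 12.7% over input. At an unadjusted p under 0.05 there were 2 over IgG RIP (Papola, and Papolg at the threshold once rounded) and 1 over input (Papola). The shares of all genes at that level were 26.8% and 28.1%. DESeq2 called Papola over IgG RIP and 0 over input. Papola, the main nuclear poly(A) polymerase, was the fifth most abundant member per length. It had 262 and 290.1 CPM in the CPEB4 RIP libraries, 143 and 183 in those of IgG RIP and 168 and 218 in those of input. Both CPEB4 RIP libraries were above the other 4, with log2 fold changes of 0.76 with an SE of 0.19 (adjusted p = 0.0547) over IgG RIP and 0.51 (adjusted p = 0.131) over input. Over IgG RIP Papola passed in 10 of 16 alternatives, with adjusted p between 6.83e-05 and 0.429. DESeq2 gave 0.00166 after adjustment, and the fits without IgG RIP replicates 1 and 2 gave 0.0024 and 6.83e-05. Without CPEB4 RIP replicates 1 and 2 the adjusted p was 0.109 and 0.429, and with a correction for gene length 0.219. Papolg, a second nuclear polymerase of the same family, had 9.20 and 11.6 CPM in the CPEB4 RIP libraries, 12.3 and 29.8 in those of IgG RIP and 15.2 and 22.6 in those of input, the opposite order. Its differences of -1.02 with an SE of 0.44 (adjusted p = 0.187) and -0.86 (adjusted p = 0.249) did not pass. Tent2 encodes GLD-2, the polymerase of cytoplasmic polyadenylation, and had 38.6 and 40.8 CPM in the CPEB4 RIP libraries, 43.7 and 61.3 in those of IgG RIP and 46.6 and 59.7 in those of input. Its CPEB4 RIP libraries were the lowest of the 6, by -0.42 (adjusted p = 0.28) relative to input and -0.40 (adjusted p = 0.303) relative to IgG RIP. Tent4b and Tent4a encode noncanonical polymerases that can add mixed tails. Tent4b had 22.1 and 22.1 CPM in the CPEB4 RIP libraries, 13.4 and 44.6 in those of IgG RIP and 16.9 and 22.3 in those of input, and Tent4a had 19.2 and 25.9 CPM in the CPEB4 RIP libraries, 22.9 and 5.06 in those of IgG RIP and 12.8 and 12.6 in those of input. The IgG RIP replicates of these genes differed 3.32-fold and 4.53-fold in opposite directions, and neither gene passed.

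Among the 14 nuclear cleavage and polyadenylation factors 1 was higher and 1 lower over input, and 0 were higher and 1 lower over IgG RIP, with medians of -0.30 and -0.28. These shares, 14.3% and 7.14%, were near the 12.7% and 8.21% of all genes that passed. Cpsf3 (chromosome 12, 21286273 to 21315056) encodes the nuclease that cuts the transcript. It had 17.98 and 15.1 CPM in the CPEB4 RIP libraries, 31.2 and 27.4 in those of IgG RIP and 44.2 and 50.98 in those of input. The groups did not overlap, with CPEB4 RIP the lowest and input the highest. Cpsf3 was 2.88-fold lower than input, at -1.52 with an SE of 0.22 (adjusted p = 0.00598), and stood at -0.83 with an SE of 0.21 (adjusted p = 0.0577) relative to IgG RIP, which did not pass. Cpsf3 did not pass over input without CPEB4 RIP replicate 1 (with p then 0.0571 after adjustment), CPEB4 RIP replicate 2 (0.138) or input replicate 2 (0.0549). Fip1l1 (chromosome 5, 74535438 to 74598790) encodes the CPSF subunit that contacts the poly(A) polymerase, and had 39.4 and 38.6 CPM in the CPEB4 RIP libraries, 77.5 and 63.7 in those of IgG RIP and 61.2 and 51.8 in those of input. Its CPEB4 RIP libraries were the lowest, and IgG RIP, not input, was the highest. It was 1.81-fold lower than IgG RIP, at -0.86 with an SE of 0.19 (adjusted p = 0.038), and -0.53 (adjusted p = 0.113) relative to input. Over IgG RIP the value was -0.53 without IgG RIP replicate 1 (adjusted p = 0.0443) and -0.50 with a correction for gene length (0.271). Fip1l1 did not pass over IgG RIP without CPEB4 RIP replicate 1 (with p then 0.388 after adjustment), CPEB4 RIP replicate 2 (0.418), input replicate 1 (0.11) or input replicate 2 (0.112). The annotated spans of 21 of the 41 members overlap another gene. Among the members that passed, Cpsf3 overlaps Itgb1bp1 and a snoRNA gene, Fip1l1 overlaps Lnx1, Parn a pseudogene, Cnot6 2 pseudogenes and Pabpc4 2 snoRNA genes. Whether reads were counted by strand is not stated, and whether the overlaps include exons was not examined. How far reads of overlapping genes enter these counts was therefore not resolved.

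Nudt21 (chromosome 8, 94019403 to 94037039) encodes the small subunit of cleavage factor I, which binds UGUA elements and steers the choice of poly(A) site. It had 56.3 and 71.3 CPM in the CPEB4 RIP libraries, 43.9 and 43.1 in those of IgG RIP and 32.3 and 40.99 in those of input. The groups did not overlap, with CPEB4 RIP the highest. It rose 1.74-fold over input (log2 0.80, SE 0.21, adjusted p = 0.0467) and stood at 0.55 (adjusted p = 0.146) over IgG RIP. Nudt21 did not pass over input without CPEB4 RIP replicate 1 (with p then 0.0968 after adjustment), CPEB4 RIP replicate 2 (0.444), input replicate 1 (0.274) or input replicate 2 (0.11). The large subunits of the same factor did not pass: Cpsf7 had 41.3 and 43.8 CPM in the CPEB4 RIP libraries, 23.6 and 43.5 in those of IgG RIP and 26.3 and 31.8 in those of input (0.55 over input), and Cpsf6 had 56.5 and 59.7 CPM in the CPEB4 RIP libraries, 47.4 and 79.97 in those of IgG RIP and 65.4 and 68.5 in those of input (-0.20 over input). The cleavage factor II subunits Pcf11 and Clp1 were both below input in CPEB4 RIP, Clp1 also below IgG RIP without overlap. Pcf11 had 70.1 and 74.6 CPM in the CPEB4 RIP libraries, 72.3 and 116 in those of IgG RIP and 108 and 139 in those of input, at -0.77 (adjusted p = 0.0871) relative to input. Clp1 had 25.9 and 23.6 CPM in the CPEB4 RIP libraries, 36.6 and 40.3 in those of IgG RIP and 40.4 and 39.7 in those of input, at -0.69 (adjusted p = 0.0545) relative to input and -0.63 (adjusted p = 0.0843) relative to IgG RIP.

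The remaining CPSF and CstF subunits did not pass in any comparison. Wdr33, which binds the AAUAAA signal, had 62.4 and 76.4 CPM in the CPEB4 RIP libraries, 68.8 and 49.1 in those of IgG RIP and 61.3 and 63.6 in those of input, with overlapping groups. Cpsf4, its partner in signal binding, had 22.9 and 17.1 CPM in the CPEB4 RIP libraries, 11.8 and 3.32 in those of IgG RIP and 9.84 and 12.02 in those of input. Its CPEB4 RIP libraries were the highest, and its IgG RIP replicates were 3.56-fold apart. The value of 1.41 with an SE of 0.54 (adjusted p = 0.147) over IgG RIP did not pass. Cpsf2, the nuclease-like partner of Cpsf3, had 28.5 and 31.4 CPM in the CPEB4 RIP libraries, 33.6 and 57.9 in those of IgG RIP and 35.6 and 43.6 in those of input (-0.40 over input, -0.61 over IgG RIP). Cpsf1, the scaffold of CPSF, had 15.4 and 13.5 CPM in the CPEB4 RIP libraries, 16.5 and 22.9 in those of IgG RIP and 16.2 and 8.74 in those of input (0.21, -0.45). The CstF subunits, which bind the downstream element, stood between -0.65 for Cstf1 and -0.19 for Cstf3 over input and between -0.34 and -0.20 (Cstf2) over IgG RIP. Cstf3, the most abundant of them, had 57.3 and 65.3 CPM in the CPEB4 RIP libraries, 68.3 and 73.8 in those of IgG RIP and 62.5 and 77.5 in those of input. Sympk, the symplekin gene that is outside the matched list, was low at 5.30 and 4.36 CPM in the CPEB4 RIP libraries, 1.81 and 6.95 in those of IgG RIP and 5.71 and 3.51 in those of input, with log2 fold changes of 0.06 over input and 0.13 over IgG RIP.

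**Figure D3:**
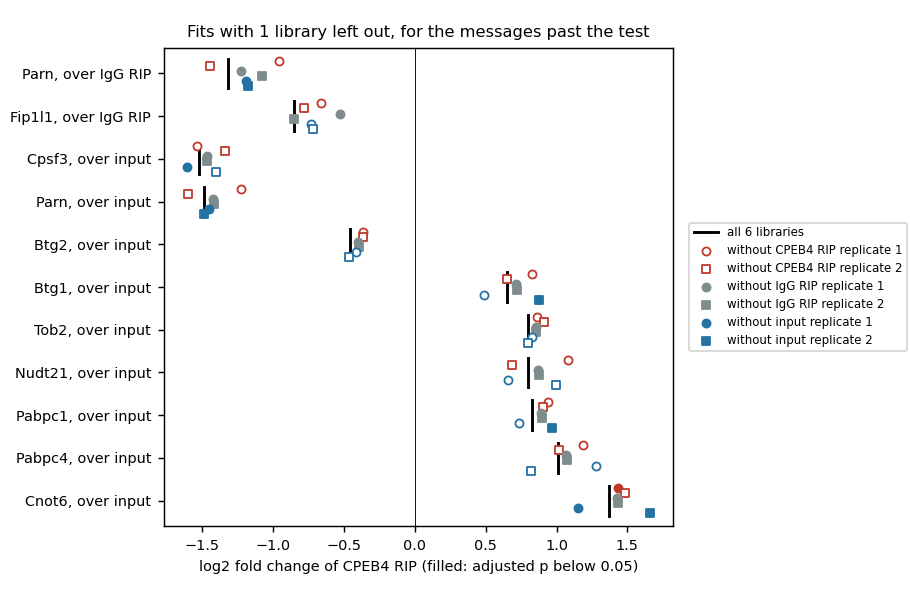
Log2 fold change of CPEB4 RIP for the 11 combinations of message and background that passed the test, with all 6 libraries (black bars) and with 1 library left out (points; filled where the adjusted p stayed below 0.05). Every point keeps the sign of its bar, all points without an IgG RIP library are filled, and 1 point without a CPEB4 RIP library is filled, that of Cnot6 over input without replicate 1.

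The direction of the 11 values that passed was the same in each of the 16 alternatives, and the calls were not. Cnot6 over input passed in 15 of the 16, Cpsf3 and Parn over input in 13 each, and Parn over IgG RIP in 12. Nudt21 over input passed in 6, the fewest. In the fits that left out an IgG RIP library all 11 passed, as the plot of left-out libraries shows. The share of all genes that passed over either background was also higher in those fits than with all libraries, as given above. Those fits held fewer libraries, and the disagreement between the IgG RIP replicates no longer entered the spread estimated for each gene. Whether either of these accounts for the calls was not tested.

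Compared per length on the FPKM scale (fragments per kilobase scaled to library size, as deposited), the members spanned a wide range, with a mean over the 6 libraries of 359 for Btg2 and 0.447 for Cnot3. Btg2 was followed by Btg1 (245), Paip2 (127), Pabpc1 (48.2) and Papola (22.6). Among the nucleases the FPKM means were 10.9 for Cnot7, 10.8 for Cnot8, 9.21 for Cnot6, 4.40 for Parn, 2.51 for Cnot6l and 1.25 for Pan2. FPKM ratios were taken for 7 pairs of paralogues, picked after the values of their members were seen, and no test of the ratios was run. The FPKM ratio of Btg1 to Btg2 was 1.001 and 1.13 in the CPEB4 RIP libraries, 0.514 and 0.649 in those of IgG RIP and 0.420 and 0.570 in those of input. That of Papola to Papolg was 23.7 and 20.9 in the CPEB4 RIP libraries, 9.72 and 5.13 in those of IgG RIP and 9.23 and 8.06 in those of input. That of Tob1 to Tob2 was 1.56 and 1.63 in the CPEB4 RIP libraries, 0.648 and 1.21 in those of IgG RIP and 1.18 and 1.38 in those of input. In these 3 pairs CPEB4 RIP lay above the other 4 libraries. The ratio of Pabpc1 to Pabpc4, both higher over input, was 11.4 and 10.3 in the CPEB4 RIP libraries, 12.6 and 9.28 in those of IgG RIP and 9.79 and 15.8 in those of input, with the CPEB4 RIP values inside the range of the others. The ratio of Cnot6 to Cnot6l was 3.96 and 4.38 in the CPEB4 RIP libraries, 4.33 and 3.15 in those of IgG RIP and 2.88 and 2.98 in those of input. The ratio of Cnot7 to Cnot8 in CPEB4 RIP overlapped that in IgG RIP and lay above that in input, and that of Tent4b to Tent4a was 1.06 and 15.9 in the IgG RIP libraries.

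**Figure D4:**
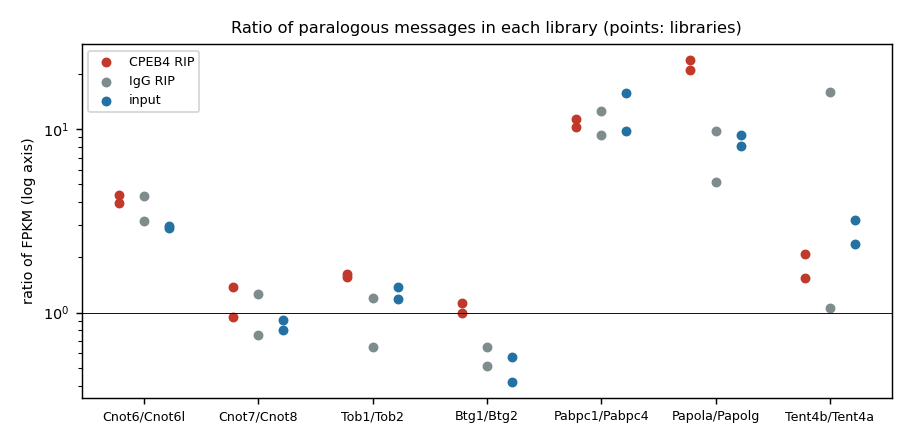
Ratio of FPKM (log axis) between 7 pairs of paralogous messages in each library of CPEB4 RIP, IgG RIP and input. Each point is a library. The Btg1 to Btg2, Papola to Papolg and Tob1 to Tob2 ratios of CPEB4 RIP lie above those of the other 4 libraries, and the IgG RIP points of Tent4b to Tent4a are the widest apart.

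Of 41 other genes listed for 3′ end formation, tail addition or tail removal, 36 were tested. Over IgG RIP 2 were higher and 1 lower (8.21% of all genes passed), and over input 4 were higher and 1 lower (12.7%). Zfp36l2, an AU-rich element binding protein that recruits CCR4-NOT, rose over both, with 92.7 and 90.2 CPM in the CPEB4 RIP libraries, 34.7 and 42.3 in those of IgG RIP and 22.8 and 33.96 in those of input and values of 1.69 with an SE of 0.24 (adjusted p = 0.00586) over input and 1.25 (adjusted p = 0.0233) over IgG RIP. Btg3, another BTG/TOB gene, rose over both as well, with 32.8 and 32.3 CPM in the CPEB4 RIP libraries, 13.3 and 14.9 in those of IgG RIP and 6.85 and 10.9 in those of input and values of 1.88 (adjusted p = 0.00793) over input and 1.21 (adjusted p = 0.045) over IgG RIP. Zfp36l1, of the same family as Zfp36l2, had 522 and 493 CPM in the CPEB4 RIP libraries, 442 and 679 in those of IgG RIP and 241 and 248 in those of input, higher than input at 1.05 (adjusted p = 0.0175) and level with IgG RIP at -0.14. Cstf2t, a paralogue of Cstf2, was lower than IgG RIP at -0.86 (adjusted p = 0.0342), with 37.03 and 44.3 CPM in the CPEB4 RIP libraries, 68.7 and 79.4 in those of IgG RIP and 63.6 and 59.2 in those of input. It was -0.53 without CPEB4 RIP replicate 1 (adjusted p = 0.45). The other 2 that passed over input are named because they passed. Zfp36, the founding gene of that family, was higher at 0.67 (adjusted p = 0.0404), with 317 and 293 CPM in the CPEB4 RIP libraries, 318 and 361 in those of IgG RIP and 215 and 168 in those of input. Tut1, a terminal uridylyltransferase that can also add poly(A), was lower at -1.81 (adjusted p = 0.022), with 14.7 and 14.7 CPM in the CPEB4 RIP libraries, 27.2 and 11.3 in those of IgG RIP and 54.3 and 49.1 in those of input. The calls of these related genes did not hold in every alternative. Of the 16 alternatives, Zfp36l2 passed in 15 over input and 12 over IgG RIP, and Btg3 in 14 and 12. Over input Tut1 passed in 11, Zfp36l1 in 10 and Zfp36 in 7, and over IgG RIP Cstf2t passed in 7. The medians over the 36 genes tested were -0.09 over input and -0.04 over IgG RIP. The fits to IgG RIP over input called 0 of the 36, with 10 at an unadjusted p under 0.05 (14.1% of all genes) and 6 called by DESeq2 (3.91%).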

How the data were processed

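Muscle stem cell RNA was sequenced in 6 libraries, with 2 for CPEB4 RIP, 2 for IgG RIP and 2 for input. Per the submitters' processing notes, reads were aligned with HISAT2 to mm10 and counted with featureCounts; the sources used here do not give versions, annotation, strand or multi-mapping settings. One deposited table has unnormalised counts, and the deposited FPKM table holds the same genes per length, scaled by a library total that is not stated. Reads carry no molecular identifiers here, so depth limits counting error only.

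The count analysis used edgeR 4.0.16 (R 4.3.3): filterByExpr (minimum count 10, minimum total 15), TMM scaling, and a quasi-likelihood fit with group as the term, over all 6 libraries (residual degrees of freedom 3). Tests were two-sided, adjusted by Benjamini-Hochberg over 18054 genes, with a threshold of 0.05. SE is the absolute log2 fold change over the square root of F. Alternatives used DESeq2 1.42.0, limma 3.58.1 on log2(FPKM + pseudocount) (pseudocounts 1 and 0.1; with a mean-variance trend, added because limma without it made no call when the steps were tested on simulated data), other scalings, no filter, a replicate term, a length offset (loess, span 0.3, length from counts over FPKM) and each library left out. The edgeR fit, DESeq2, the length offset and the replicate term were run on simulated data too, for CPEB4 RIP over IgG RIP. The other scalings, the smaller pseudocount, the fits without a filter and those with fewer libraries were not simulated.

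Every member may be named. Full values were planned for members past the test in any comparison and for the most abundant of each role. Values per library are given for many other members too. Up to 3 related genes with the smallest p in each comparison were to be named. The rest of those past the test over input are named as well. The members and lists were chosen with earlier results of these data known. Positions are from RefSeq on GRCm38, the assembly of mm10.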

Additional observations from a re-analysis of the deposited data

How the results depend on the processing

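Members past the test over IgG RIP numbered 2, both lower (8.21% of all genes passed). They numbered 5 with library size alone (2 higher, 3 lower; 10.7% of all genes), 7 with no low-count filter (5 higher, 2 lower; 5.30%), 7 with the DESeq2 Wald test (3 higher, 4 lower; 16.0%), 0 with a gene length offset (0.00%) and 0 with limma on FPKM without a filter (0.695%). With a replicate block they numbered 5 (10.2%), where Pabpc1, Btg1 and Papola were higher (adjusted p = 0.0364, 0.0113 and 0.0116). Over input they numbered 9 (12.7%), against 16 with the DESeq2 Wald test (19.3%), 26 with only the 4 libraries compared (43.3%), 2 with a gene length offset (3.48%), and 4, 4 and 3 with limma on FPKM with a pseudocount of 1 (13.3%), with 0.1 (11.6%), and with 1 and no filter (1.98%). For IgG RIP over input they numbered 0, against 2 with no filter (0.998%) and 2 with DESeq2 (3.91%). With 1 library left out the counts ranged from 0 to 18 over IgG RIP, 0 to 25 over input and 0 to 11 for IgG RIP over input. In each comparison the highest of these counts came without an IgG RIP library. The share of all genes that passed was also highest there, at 32.0% for IgG RIP over input without IgG RIP replicate 1. Whether the members differed from other genes in this was not tested. With 1 library left out the members' median ranged from -0.11 to 0.15, from -0.035 to 0.22 and from -0.20 to 0.10, in the same order of comparisons. Over input the median was 0.04, against -0.19 with library size alone and 0.36 with a length offset, where that of all genes was 0.11. Of the single members, Tent4b turned to 0.86 over IgG RIP without IgG RIP replicate 2 (range with 1 library left out -0.83 to 0.86), and Tent4a to -1.45 for IgG RIP over input without IgG RIP replicate 1 (range -1.45 to 0.78); their causes, and those of the other changes, were not tested. A fit that leaves out a library assumes that the lone replicate varies like the other groups. The labels give the groups shared replicate numbers, but same-numbered libraries deviated together only weakly (r of 0.13, -0.02 and 0.07), so the numbers were not taken as pairs. Cnot11, Cnot3 and Pabpn1 had the lowest mean CPM of the members, at 3.34, 4.56 and 5.58.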
